A study of Mus musculus with 6 samples.

Results

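Arterial calcification is held in check by a small set of proteins, and 10 genes that promote or restrain it were followed through whole thoracic aorta after TGF-β signaling was disrupted in smooth muscle cells (SMCs). They were chosen by name, with earlier results of these data known: Mgp, Enpp1, Ank, Alpl, Sost, Tnfrsf11b, Sox9, Runx2, Spp1 and Ibsp. All 10 were found among the 52636 genes of the count table, and all 10 passed the filter on low counts. Bulk RNA-seq covered 6 libraries. The 4 WT libraries are of C57BL/6J aorta without treatment. The 2 KO libraries are of aorta from Tgfbr1/2iSMCKO mice, in which Cre driven by the Myh11 promoter deletes loxP-flanked Tgfbr1 and Tgfbr2 in SMCs and the mT/mG reporter marks recombined cells. Tamoxifen (2 mg/d i.p.) was injected over 5 days to activate Cre in KO mice aged 11 weeks, and every aorta was from a mouse of 12 weeks. Genotype, transgene, reporter and tamoxifen thus all differ between the groups and cannot be told apart. The study counts these samples by mouse, so p-values measure the spread between mice.

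Mineral forms where phosphate is high and its inhibitors are scarce. Mgp binds mineral and bone morphogenetic proteins once vitamin K-dependent carboxylation has activated it, and mice without it calcify their arteries. Enpp1 makes pyrophosphate from extracellular ATP, Ank exports ATP and pyrophosphate from the cell, and Alpl, the tissue-nonspecific alkaline phosphatase, destroys pyrophosphate and frees phosphate. Sox9 and Runx2 are the transcription factors of chondrocytes and osteoblasts, and SMCs that calcify are known to take on parts of either program, including the bone matrix proteins osteopontin (Spp1) and bone sialoprotein (Ibsp). Tnfrsf11b encodes osteoprotegerin, a decoy receptor for the osteoclast factor Tnfsf11 (RANKL). Sost encodes sclerostin, a secreted antagonist of Wnt signaling made by osteocytes and also by aortic SMCs.

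Promoter sequence was given by RefSeq (GRCm38.p6) for 7 of the 10 genes. Printed here are the 250 bases before the start of Enpp1 and Sost, whose counts were lower in KO, and before the first start of Spp1, the matrix gene in which a motif of the Runx factors was present. Each runs 5′ to 3′ on the strand of its gene, and capitals mark matches to the short Smad-binding motif CAGAC or to the Runx motif AACCACA, on either strand.
Enpp1, chr10:24712160-24712409, minus strand: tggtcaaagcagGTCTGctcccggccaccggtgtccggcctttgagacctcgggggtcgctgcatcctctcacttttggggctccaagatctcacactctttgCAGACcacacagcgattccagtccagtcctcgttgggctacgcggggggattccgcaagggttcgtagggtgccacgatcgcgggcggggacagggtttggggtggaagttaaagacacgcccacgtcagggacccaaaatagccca
Sost, chr11:101967016-101967265, minus strand: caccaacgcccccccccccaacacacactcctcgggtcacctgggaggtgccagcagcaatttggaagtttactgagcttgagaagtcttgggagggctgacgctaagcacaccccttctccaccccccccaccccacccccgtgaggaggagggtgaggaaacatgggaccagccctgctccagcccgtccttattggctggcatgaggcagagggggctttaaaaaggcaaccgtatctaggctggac
Spp1, chr5:104434861-104435110, plus strand: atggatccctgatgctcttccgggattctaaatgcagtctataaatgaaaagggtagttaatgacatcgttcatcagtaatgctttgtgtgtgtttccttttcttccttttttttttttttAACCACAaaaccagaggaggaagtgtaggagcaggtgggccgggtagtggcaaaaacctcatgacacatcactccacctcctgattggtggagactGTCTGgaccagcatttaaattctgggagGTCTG
The Enpp1 window held CAGAC at 238 and 147 bases before the start, the first of them on the opposite strand. The Sost window held neither motif. The Spp1 window held AACCACA at 129 bases and CAGAC on the opposite strand at 33 and 5 bases before the start, whereas the window of a second Spp1 start, not printed, held no AACCACA and a single CAGAC at 41 bases. The windows of Ank and Alpl, which were also lower in KO, held neither motif and are not printed. Also not printed, the Runx2 window held AACCACA at 81 bases before the start and no CAGAC, and the Ibsp window held neither motif. Over all 32851 mouse promoters cut to the same 250 bases, 42.2% held CAGAC and 4.40% held AACCACA, so a CAGAC match is common. The Enpp1 and Sost windows had the same GC content of 61.2%, against a median of 52.4%, but 17 and 6 CpG dinucleotides. A match describes the letters only and says nothing of binding.

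The libraries held between 19650983 and 28860598 counts. Whole-gene counts do not test the KO label, because a deleted exon leaves the rest of the transcript to be counted: Tgfbr1 had 3858, 3999, 4763 and 5420 normalised counts in WT and 5780 and 4568 in KO, and Tgfbr2 had 5327, 5643, 6948 and 7042 in WT and 5784 and 5937 in KO. The table's columns carry codes, and their match to the libraries was inferred from those codes, so WT and KO below mean the libraries so labelled. Both KO libraries stood apart from WT in RNA of other tissues. Summed over marker lists and scaled for gene length (TPM), cardiac muscle genes summed to 1770 in KO-1 and 98.4 in KO-2 against 45.9 to 102 in WT. Brown fat genes summed to 263 and 1422 in KO-1 and KO-2 against 81.7 to 105 in WT, and red blood cell genes to 2324 and 9887 against 160 to 990. Mitochondrial genes took 11.7% of counts in KO-2, 3.38% in KO-1 and 2.62% to 4.44% in WT. Macrophage genes summed to 1417 and 1324 in KO and 780 to 896 in WT, and 8 of 10 of them rose (DESeq2, adjusted p under 0.05). Smooth muscle genes summed to 45140 and 40070 in KO and 41820 to 51730 in WT, and none of the 9 passed the test. Mesothelial genes, of which 6 of 8 rose, summed to 116 and 144 in KO and 57.4 to 65.1 in WT, and 4 of 8 endothelial genes rose. Over all genes tested, 10.4% passed this test in either direction. The part of these other tissues in the results that follow was not tested. In whole tissue, fewer cells of a type and less RNA per cell cannot be told apart.

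In WT aorta the 10 genes differed widely in level. On the length-scaled scale Mgp stood at 6705 ± 350 TPM (mean ± SD, n = 4), rank 14 of 24129 genes with a count in WT, and Sost at 2320 ± 349 TPM, rank 36. Ank followed at 146 ± 20.3 TPM. The middle group comprised Tnfrsf11b at 26.6 ± 5.35, Enpp1 at 23.4 ± 2.51 and Alpl at 19.8 ± 2.29 TPM, and neighbours within it overlapped between libraries. Sox9 was at 7.62 ± 1.29, Spp1 at 3.28 ± 1.90, Ibsp at 1.31 ± 0.653 and Runx2 at 1.03 ± 0.314 TPM. Of the last 3, Spp1 lay above Runx2, with a lowest WT value of 1.61 TPM against a highest of 1.41. The range of Ibsp overlapped both, so Ibsp could not be placed. The inhibitors and pyrophosphate genes therefore lay above the osteochondrogenic transcription factors and bone matrix genes in every WT library. The spread was widest for Spp1 and Ibsp, with coefficients of variation of normalised counts in WT of 56.1% and 49.0%. The coefficient was 26.3% for Runx2, the lowest gene in TPM, 7.54% for Mgp, 7.88% for Enpp1 and 8.48% for Alpl.

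**Figure D1:**
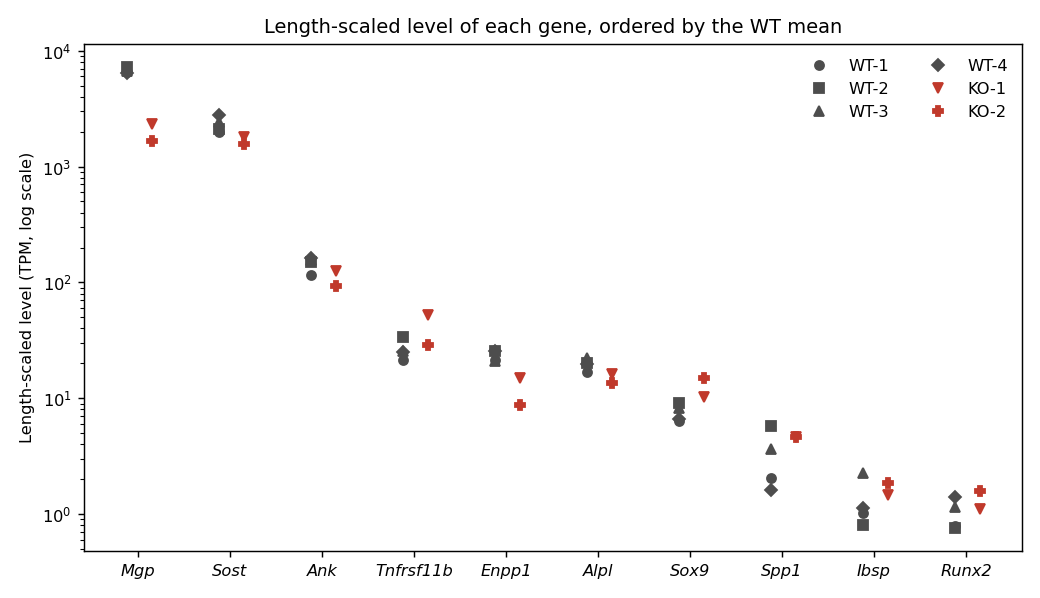
Length-scaled level (TPM, log axis) of the 10 genes in each of the 4 WT libraries (grey) and 2 KO libraries (red), ordered by the WT mean. Mgp and Sost lie far above the rest, and both KO points of Mgp, at 2350 and 1671 TPM, lie below its WT points.

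By KO means, Mgp moved to rank 43 and Sost to rank 49 of all genes. Enpp1 had a higher mean than Alpl and Sox9 in WT. In KO-2 it stood below both, at 8.70 TPM against 13.5 for Alpl and 14.9 for Sox9. In KO-1 it stood at 14.8 TPM, below Alpl at 16.1 but above Sox9 at 10.2.

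Of the 10 genes, 2 were differentially expressed by the study's thresholds (DESeq2, adjusted p under 0.05 and more than 2-fold), Mgp and Enpp1, and both were downregulated. Among the 17070 genes tested, 5.64% met these thresholds and 2.10% met them as lower in KO. At adjusted p alone, 3 of the 10 passed, again all lower, against 10.4% of all genes in either direction and 4.69% lower. On normalised counts the groups did not overlap for 5 of the 10, all lower in KO, namely Mgp, Enpp1, Ank, Alpl and Sost, against 34.3% of genes in either direction and 16.4% lower. On the TPM scale Ank overlapped, with KO-1 at 125 against 117 to 162 in WT, and Sox9 was above WT in both KO libraries. The median log2 fold change was -0.05 over the 10 genes and 0.01 over all genes tested.

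**Figure D2:**
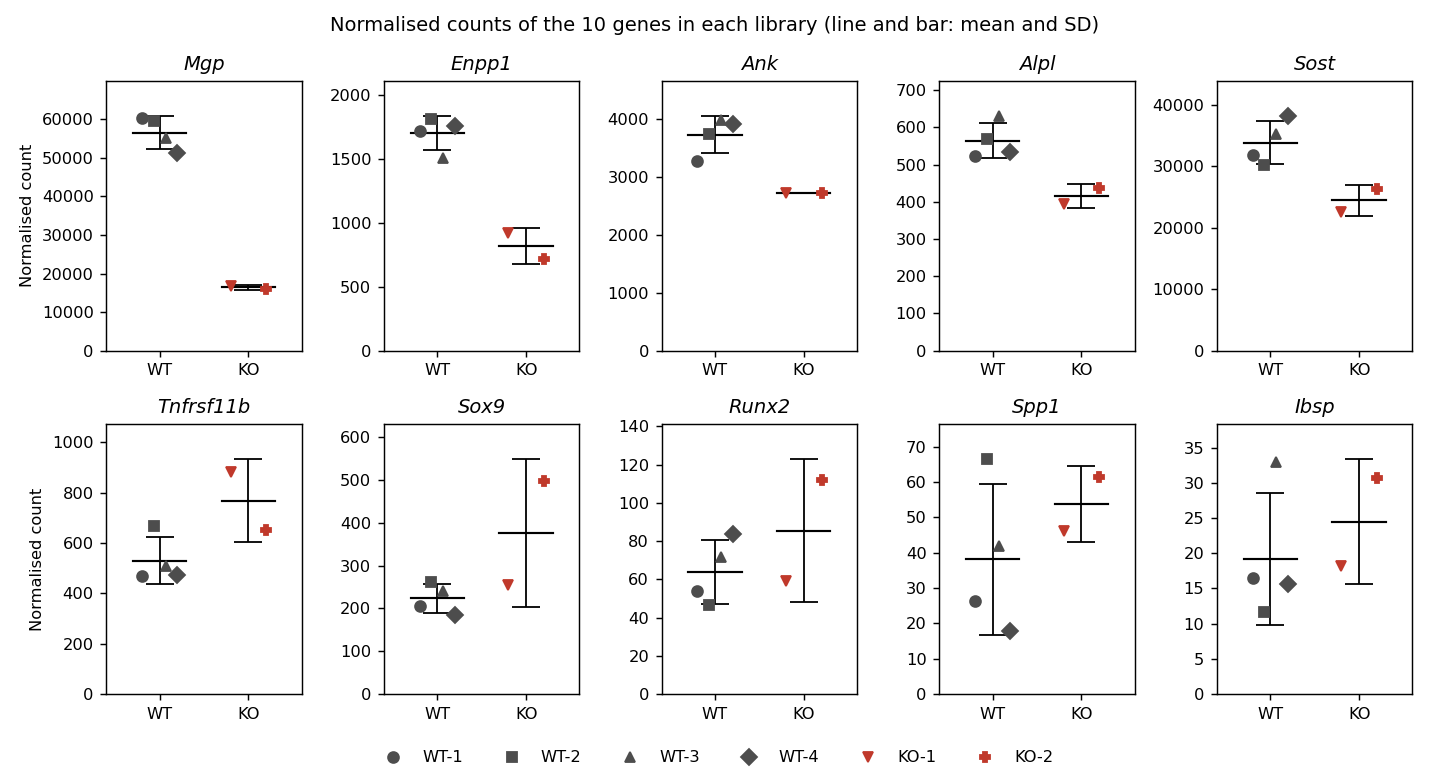
Normalised counts (linear axes from 0) of the 10 genes in each library, with WT in grey and KO in red, and with a line and bar for the mean and SD of each group. Both KO points lie below every WT point for Mgp, Enpp1, Ank, Alpl and Sost, and the groups overlap in the lower row.

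Mgp (ENSMUSG00000030218.2, chr6:136872435-136875823, minus strand, GRCm38) fell the most of the 10. Its normalised counts were 60370, 59500, 55130 and 51150 in WT and 16870 and 15990 in KO. Both KO libraries were far below the lowest WT library and, on this scale, differed little from each other. In TPM they stood at 2350 and 1671. The fall was 3.44-fold, a log2 fold change of -1.78 ± 0.15 (SE; 95% interval -2.08 to -1.49; DESeq2 adjusted p = 1.14e-28), and edgeR gave an adjusted p of 0.00123. The change passed under all 15 alternative settings, from -1.87 to -1.73. In WT, Mgp gave 6442 to 7220 TPM of a sum of the 10 genes that ran from 8716 to 9570 TPM. In KO that sum was 4386 and 3416 TPM, and its fall largely repeats the fall of Mgp.

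Mgp and Sost are both abundant in the aortic wall, and a ratio of 2 genes within a library does not depend on depth. Sost was itself lower in KO, at 22640 and 26280 normalised counts against 30180 to 38150 in WT. Mgp stood at 3.30, 3.43, 2.72 and 2.33 times Sost per length in WT and at 1.297 and 1.06 times in KO. Against the sum of the smooth muscle list, a comparison chosen after the values were seen, Mgp was 15.7%, 15.4%, 12.8% and 14.1% in WT and 5.21% and 4.17% in KO. The groups did not overlap on either measure. Mgp is also known from fibroblasts and chondrocytes. Fibroblast genes summed to 3184 and 2166 TPM in KO and 1967 to 2412 in WT. Chondrocyte genes summed to 60.2 and 138.5 TPM in KO and 39.3 to 55.7 in WT, but Chad alone gave 47.9 and 126 of the KO sums, and Acan stood at 7.76 and 5.98 TPM in KO against 29.1 to 43.0 in WT. The part of these cells in the fall of Mgp was not tested.

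The vitamin K cycle that activates the Mgp protein was measured through Ggcx, the carboxylase, and Vkorc1, the reductase that recycles the vitamin. Ggcx had 1508, 1446, 1275 and 1429 normalised counts in WT and 1199 and 955 in KO, and Vkorc1 had 1192, 2086, 1775 and 1584 in WT and 1333 and 397 in KO. On this scale Ggcx was lower in both KO libraries and Vkorc1 was low in KO-2 only, and neither passed (DESeq2 adjusted p = 0.171 and 0.0858). In TPM Ggcx stood at 61.1 in KO-1 and 36.5 in KO-2 against 56.0 to 65.9 in WT, so KO-1 overlapped WT. Gas6, another protein carboxylated in this way, differed by 0.07 on the log2 scale (DESeq2 adjusted p = 0.881).

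Enpp1 (ENSMUSG00000037370.13, chr10:24637914-24712159, minus strand) was the second gene to meet the thresholds. It had 1721, 1816, 1510 and 1764 normalised counts in WT and 920 and 719 in KO. Every KO value was under the lowest WT value, with KO-2 lower than KO-1. The log2 fold change was -1.05 ± 0.19 (95% interval -1.42 to -0.69; DESeq2 adjusted p = 1.51e-06; edgeR adjusted p = 0.0120), a 2.07-fold fall. The size sits at the 2-fold line: KO-1 was -0.89 and KO-2 -1.24 from the WT mean, and without KO replicate 2 the change was -0.88, still past adjusted p but under 2-fold. Against a null of 2-fold change the DESeq2 adjusted p was 1.

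Ank (ENSMUSG00000022265.7, chr15:27466677-27594909, plus strand), the exporter of the same pathway, had 3274, 3740, 3985 and 3904 normalised counts in WT and 2725 and 2715 in KO. On this scale the KO libraries were nearly equal, and both were below WT. In TPM they stood at 125 and 93.3 against 117 to 162 in WT, so KO-1 overlapped WT. The fall was 1.37-fold (log2 fold change -0.45 ± 0.16, 95% interval -0.77 to -0.14; DESeq2 adjusted p = 0.0480). The edgeR adjusted p was 0.0673, and Ank stayed under 0.05 in only 2 of the 15 alternatives, so its call depends on the settings. Its locus overlaps Otulin on the opposite strand, and the counting is not stated to use strand.

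Alpl (ENSMUSG00000028766.10, chr4:137741733-137796384, minus strand), which removes pyrophosphate, had 524, 569, 630 and 535 normalised counts in WT and 393 and 438 in KO. The groups did not overlap, yet the change of -0.44 ± 0.20 (95% interval -0.83 to -0.06) did not pass (DESeq2 adjusted p = 0.147; edgeR adjusted p = 0.105), nor did it in any of the 15 alternatives. Both the producer and the consumer of pyrophosphate were thus lower in each KO library than in every WT library. Per length, Enpp1 stood at 1.292, 1.25, 0.942 and 1.297 times Alpl in WT and at 0.921 and 0.646 times in KO, values that did not overlap but whose nearest neighbours were close. Ank stood at 6.98 to 8.16 times Alpl in WT and at 7.75 and 6.93 times in KO, which overlap.

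Among the 10 other genes of pyrophosphate, nucleotide and phosphate handling, 1 rose and 2 fell at adjusted p under 0.05. Of all genes, 10.4% passed in either direction and 4.69% as lower. Smpd3, the neutral sphingomyelinase whose loss impairs bone mineral, had 213, 212, 265 and 334 normalised counts in WT and 538 and 516 in KO (log2 fold change 1.04 ± 0.26, DESeq2 adjusted p = 0.00139, edgeR adjusted p = 0.0312). Slc20a1, the phosphate importer Pit1, had 933, 946, 985 and 792 in WT and 644 and 532 in KO (-0.63 ± 0.20, DESeq2 adjusted p = 0.0164, edgeR adjusted p = 0.0505). Both KO libraries lay outside the WT range for each. Slc29a1, a transporter of adenosine, also fell (-0.52 ± 0.16, DESeq2 adjusted p = 0.0129). Slc20a2, the importer Pit2, was close to it in size at -0.44 ± 0.16 but did not pass (DESeq2 adjusted p = 0.0525). Nt5e, which makes adenosine from AMP, overlapped between groups, and Abcc6, a transporter needed for ATP release in liver, was near 0, at no more than 12.9 normalised counts in any library.

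Sost (ENSMUSG00000001494.6, chr11:101962458-101967015, minus strand) had 31840, 30180, 35280 and 38150 normalised counts in WT and 22640 and 26280 in KO. Both KO libraries were below the lowest WT library, by less than the gap seen for Mgp. The log2 fold change was -0.47 ± 0.17 (95% interval -0.80 to -0.14; DESeq2 adjusted p = 0.0527; edgeR adjusted p = 0.0941), which missed the threshold. It passed in 3 of the 15 alternatives, including without WT replicate 2 (adjusted p = 0.0450) and without KO replicate 2 (adjusted p = 0.0444). Against the smooth muscle sum Sost was 4.48% to 6.03% in WT and 4.01% and 3.94% in KO.

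Other secreted Wnt antagonists moved in different directions. Of 12 genes beside Sost in that list, which also holds its receptors, 11 were tested, 1 rose and 2 fell. Among all genes, 10.4% passed in either direction and 4.69% as lower. Wif1, which binds Wnt ligands, had 1890, 1453, 1970 and 1812 normalised counts in WT and 690 and 490 in KO, well separated (-1.59 ± 0.22, DESeq2 adjusted p = 3.70e-11, edgeR adjusted p = 0.00796). Dkk3, a divergent member of the Dickkopf family, fell by 0.80 on the log2 scale (DESeq2 adjusted p = 0.000644). Frzb, a frizzled-related decoy, had 596, 991, 889 and 750 in WT and 1917 and 1578 in KO (1.12 ± 0.23, DESeq2 adjusted p = 8.28e-05, edgeR adjusted p = 0.0241). The antagonists did not share a direction.

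Tnfrsf11b (ENSMUSG00000063727.3, chr15:54250619-54278484, minus strand) had 470, 667, 509 and 472 normalised counts in WT and 884 and 652 in KO. KO-1 was above every WT library, while KO-2 lay below the highest WT library. The change of 0.54 ± 0.24 (95% interval 0.07 to 1.001) did not pass (DESeq2 adjusted p = 0.141; edgeR adjusted p = 0.157), nor in any of the 15 alternatives. Its ligand Tnfsf11 had no count in any library, which allows up to 3 counts in each. Tnfrsf11a, the receptor RANK, had 1577, 1616, 1810 and 1842 normalised counts in WT and 1439 and 1414 in KO and did not pass (-0.26 ± 0.17, DESeq2 adjusted p = 0.363). None of the 8 tested genes of this axis and of osteoclasts beside Tnfrsf11b passed.

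Sox9 (ENSMUSG00000000567.5, chr11:112782224-112787760, plus strand) had 207, 262, 240 and 185 normalised counts in WT and 254 and 498 in KO. On this scale KO-1 fell within the WT range, and only KO-2 was above it. In TPM both were above WT, at 10.2 and 14.9 against 6.43 to 9.13. The change of 0.75 ± 0.31 (95% interval 0.14 to 1.36) did not pass (DESeq2 adjusted p = 0.112; edgeR adjusted p = 0.153). KO-2 decided it: without KO replicate 1 the change was 1.16 (DESeq2 adjusted p = 0.00241), and without KO replicate 2 it was 0.20. Both KO libraries were above WT in brown fat and red blood cell genes, KO-2 more so, and their part in this difference was not tested.

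Runx2 (ENSMUSG00000039153.16, chr17:44495987-44814797, minus strand) was among the lowest, with 53.8, 46.7, 71.9 and 83.5 normalised counts in WT and 59.2 and 112 in KO. KO-1 was inside the WT range and KO-2 above it. The change was 0.41 ± 0.44 (95% interval -0.45 to 1.27; DESeq2 adjusted p = 0.655), and without KO replicate 2 its sign turned to -0.10. The locus overlaps Supt3 and antisense transcripts, and reads from these could not be told apart.

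The other osteoblast and chondrocyte transcription factors gave few calls. Of 10 tested osteoblast factors beside Runx2, only Twist2, a repressor of Runx2 function, passed, with 167, 163, 149 and 141 normalised counts in WT and 287 and 232 in KO (0.75 ± 0.26, DESeq2 adjusted p = 0.0392), and edgeR gave an adjusted p of 0.0520. Sp7, which acts after Runx2, had 26.4, 10.8, 45.9 and 9.40 in WT and 11.4 and 16.0 in KO, which overlap. None of 5 tested chondrocyte factors beside Sox9 passed. Its partners Sox5 and Sox6 differed by -0.12 ± 0.22 and 0.01 ± 0.22, with DESeq2 adjusted p of 0.813 and 0.981.

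Spp1 (ENSMUSG00000029304.14, chr5:104435118-104441050, plus strand) and Ibsp (ENSMUSG00000029306.8, chr5:104299171-104311469, plus strand) lie near each other in a cluster of mineral-binding glycoprotein genes. Spp1 had 24, 74, 42 and 17 raw counts in WT and 61 and 50 in KO, which is 26.4, 66.5, 41.9 and 17.8 after normalisation in WT and 46.3 and 61.5 in KO. Both KO values lay inside the WT range. The change of 0.49 ± 0.59 (95% interval -0.66 to 1.64; DESeq2 adjusted p = 0.700) was within the spread between libraries. Macrophages also make Spp1, and their marker sum was above WT in both KO libraries. Ibsp had 15, 13, 33 and 15 raw counts in WT and 24 and 25 in KO, normalised to 16.5, 11.7, 33.0 and 15.7 in WT and 18.2 and 30.7 in KO. Its change of 0.34 ± 0.71 (95% interval -1.05 to 1.73; DESeq2 adjusted p = 0.846) turned to -0.06 without KO replicate 2. The intervals of both genes include a 2-fold rise.

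**Figure D3:**
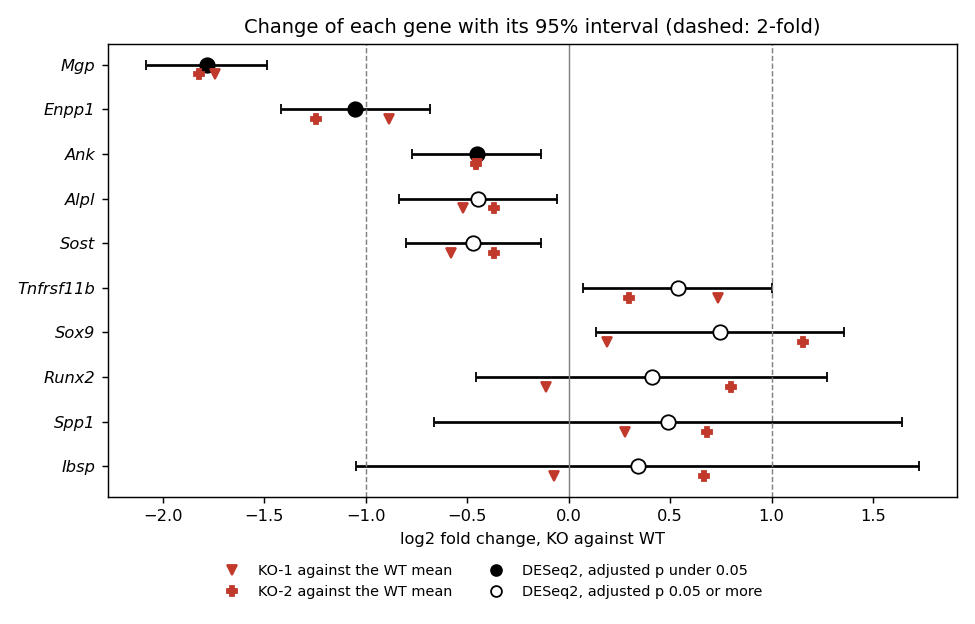
Log2 fold change of each gene, KO against WT, from DESeq2 with its 95% interval (black; filled where adjusted p is under 0.05), and each KO library against the WT mean (red). Mgp, Enpp1 and Ank are filled, only Mgp lies below the dashed 2-fold line with its whole interval, and the 2 KO libraries fall on opposite sides of 0 for Runx2 and Ibsp.

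The receptors that bind osteopontin were better measured than osteopontin itself. All 9 were tested, 1 rose and 4 fell at adjusted p under 0.05, none of them by more than 2-fold, where 10.4% of all genes passed in either direction and 4.69% as lower. Itgb5 had 18640, 19720, 15520 and 18580 normalised counts in WT and 11000 and 7763 in KO (-0.95 ± 0.19, DESeq2 adjusted p = 5.19e-05), and Itga9 had 25000, 30030, 28980 and 31950 in WT and 17320 and 15000 in KO (-0.84 ± 0.17, DESeq2 adjusted p = 2.96e-05). These integrin subunits were lower in both KO libraries than in any WT library. Itga5 and Itgb3 fell by 0.69 and 0.56 on the log2 scale, with DESeq2 adjusted p of 0.000168 and 0.0275, and edgeR gave 0.0188 and 0.0722. Cd44, a receptor of leukocytes and stromal cells, rose by 0.56 (DESeq2 adjusted p = 0.0439; edgeR adjusted p = 0.0930). Some of these subunits also serve fibronectin and vitronectin.

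Bone and cartilage matrix genes were surveyed to set the transcription factors in context. Among 7 tested bone matrix genes beside Spp1 and Ibsp, only Sparc, a collagen-binding glycoprotein of bone and of the vessel wall, passed, and it was lower: 124700, 131700, 115500 and 104800 normalised counts in WT and 65980 and 73700 in KO (-0.77 ± 0.16, DESeq2 adjusted p = 0.000105, edgeR adjusted p = 0.0256). Mepe, Bglap, Bglap2, Dspp and Tnn had no count in any library. Dmp1 reached 13.5 normalised counts at most. Other genes of the bone lists were measured: Phex, a peptidase of osteocytes, had 354 to 552 normalised counts in WT and 390 and 215 in KO, Phospho1, a phosphatase of mineralising cells, had 134 to 208 in WT and 94.1 and 208 in KO, and Ifitm5 had 10.8 to 30.8 in WT and 14.4 and 14.8 in KO. None of these passed. Osteocalcin (Bglap and Bglap2) and Mepe were thus at 0 in both groups while other genes of the same lists were not.

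Cartilage matrix genes split. Of 15 tested, 3 rose and 1 fell, where 10.4% of all genes passed in either direction and 4.69% as lower. Acan, the large aggregating proteoglycan, had 1690, 1688, 2254 and 1829 normalised counts in WT and 351 and 360 in KO (-2.39 ± 0.20, DESeq2 adjusted p = 1.13e-30, edgeR adjusted p = 0.00123), a fitted change further from 0 than that of Mgp, though the difference was not tested. Chad, the cartilage leucine-rich protein chondroadherin, had 19.8, 83.5, 34.0 and 71.0 in WT and 486 and 1712 in KO (4.40 ± 0.83, DESeq2 adjusted p = 7.35e-06, edgeR adjusted p = 0.00963). Both KO libraries were above all WT libraries, though they differed from each other by more than the WT range. Epyc, a small proteoglycan of growth cartilage, rose by 1.47 ± 0.41 (DESeq2 adjusted p = 0.00583), and Col11a1 rose from at most 9.40 normalised counts in WT to 34.2 and 45.5 in KO (DESeq2 adjusted p = 0.0336; edgeR adjusted p = 0.0898). Col2a1, the defining cartilage collagen, had 3.30, 22.5, 0 and 6.27 in WT and 35.7 and 18.4 in KO, and Matn1 and Col9a2 had no count. The groups overlapped for Col2a1, and its change of 1.75 ± 1.16 (95% interval -0.52 to 4.02) did not pass (DESeq2 adjusted p = 0.395). Acan and Chad, which stand together in the chondrocyte marker list, thus moved in opposite directions. The 4 other tested genes of that list did not pass. Their fitted changes were higher for Col2a1 and Col9a1 (0.94) and lower for Hapln1 (-0.78) and Snorc (-1.41).

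Among 9 tested inhibitors of soft tissue mineral and genes of the vitamin K cycle that are not among the 10, only Ahsg passed. Ahsg encodes fetuin-A, a circulating protein of liver that keeps calcium phosphate in solution. It had 146, 141, 212 and 233 normalised counts in WT and 773 and 767 in KO (2.08 ± 0.27, DESeq2 adjusted p = 2.69e-12, edgeR adjusted p = 0.00443). It rose in both KO libraries, and on this scale by nearly the same amount, whereas Mgp and Enpp1 fell. In TPM it stood at 58.2 and 43.3 in KO against 8.56 to 15.8 in WT.

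**Figure D4:**
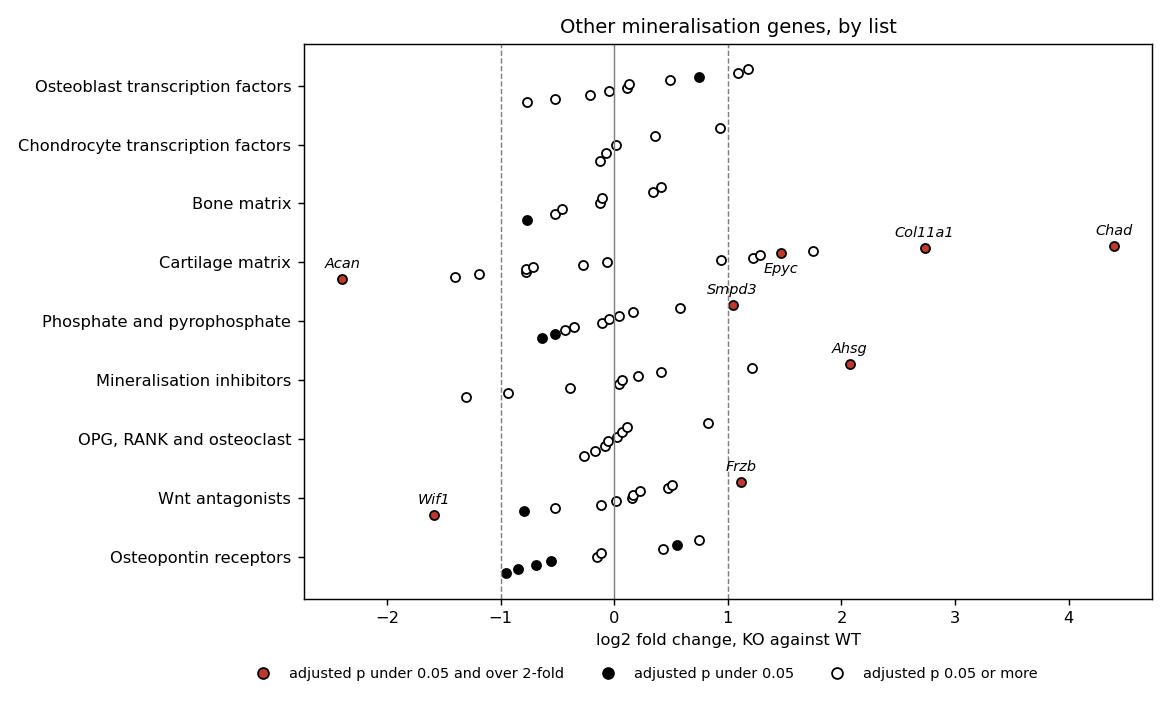
Log2 fold change of the other tested mineralisation genes, 1 point a gene, grouped by list, with red for adjusted p under 0.05 and over 2-fold, black for adjusted p under 0.05 and white for the rest (DESeq2). The 8 red points lie on both sides of 0, with Acan and Wif1 at the left and Chad at 4.40 at the far right.

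Over the 9 lists together, 103 genes beside the 10 were named and 82 were tested. The lists were chosen with earlier results of these data known, so the shares below do not test them. The thresholds were met by 8, of which 6 were higher and 2 lower in KO, or 9.76% against 5.64% of all genes in either direction and 3.54% as higher. At adjusted p alone 18 passed, or 21.95% against 10.4% of all genes. Of these 8 were higher and 10 lower, against 4.69% of all genes as lower. The median log2 fold change over all 82 tested genes was -0.02.

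For the genes past adjusted p, the 3 whose normalised counts tracked them best over the 6 libraries were sought among 12591 genes. Mgp was followed by Ddr1, Ccdc9b and Cpeb1 (Pearson r 0.9997, 0.9985 and 0.9985 of log2 values), Enpp1 by Gm11639, Pamr1 and Aco1 (0.995, 0.995 and 0.994) and Ank by Ptprr, Lpp and Gkn3 (0.998, 0.991 and 0.991). With 6 libraries in 2 groups such values are easily reached: 323 genes exceeded 0.95 for Mgp, 345 for Enpp1 and 79 for Ank.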

How the data were processed

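Bulk RNA-seq of thoracic aorta was analysed from 4 WT and 2 KO libraries. Per the labels and the study's methods, the authors trimmed reads with Trim Galore, aligned them to the mouse genome (mm10, GRCm38) with HISAT2 and counted transcripts with StringTie on GENCODE M15. The authors deposited estimated counts of each gene without depth scaling, which are whole numbers and needed no rounding. Whether counting used strand is not stated, so overlapping or antisense genes can share reads.

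DESeq2 1.42.0 in R 4.3.3 compared KO with WT over all genes with default settings, and the study's thresholds (Benjamini-Hochberg adjusted p under 0.05, over 2-fold) were applied. The study also used DESeq2, in an earlier version, and its number of called genes for aorta differs from that here. The quasi-likelihood test of edgeR 4.0.16 (the alternative here) is given beside DESeq2. Intervals are 1.96 SE. A normalised count is the count over the DESeq2 size factor of its library. TPM is counts per kilobase of merged exons (GENCODE M21), scaled to the same sum in each library, and 52489 of 52636 gene identifiers matched that annotation. All pairs of libraries differed beyond sampling noise and none was counted as a duplicate. Single-library differences use a pseudocount of 0.5.

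The genes named are all 10 members, up to 6 genes per wider list past adjusted p, and the 3 best correlated genes (mean at least 50) of each member that passed. Genes named that did not pass, such as Vkorc1, Ggcx, Gas6, Slc20a2, Nt5e, Abcc6, Tnfrsf11a, Sp7, Sox5, Sox6, Dmp1, Phex, Phospho1, Ifitm5 and Col2a1, were chosen after their values were seen. The members and lists were chosen with earlier results of these data known. The scripts were tested on simulated counts, and 15 alternatives were computed.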

Additional observations from a re-analysis of the deposited data

Results flagged for a closer look

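Across the 10 genes and 16 cell type lists, 26 sets of 4 WT values were searched for a WT library far from the other three, and chance would give about 1 in 20. The search found 2, both in WT replicate 3 and neither in one of the 10 genes. Its macrophage genes summed to 780 TPM, against 889 to 896 in the other WT libraries. Its airway epithelium genes summed to 26.6 TPM, against 0.162 to 2.54 in the other WT libraries.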

How the results depend on the processing

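Over 15 alternatives the 10 genes gave 150 values, of which 130 kept their direction and side of the threshold, 14 lost it (13 for Ank and 1 for Enpp1), 4 gained it (Sost in 3 and Sox9 in 1) and 2 turned sign. Those were Runx2 at -0.10 and Ibsp at -0.063 on the log2 scale, both without KO replicate 2; as each library was left out they ran up to 0.81 and 0.74. The count of the 10 genes called was 2, but 1 when tested against a 2-fold change, and ran from 1 to 3 as each library was left out. Without KO replicate 2 it was 1, Mgp. The count among the other mineralisation genes was 8, but 5 with edgeR on unfiltered genes and 3 when tested against a 2-fold change, and ran from 5 to 12 as each library was left out, with 5 without WT replicate 1 and 12 without KO replicate 1. With 1 KO library left, that library is assumed to vary like the WT libraries. Over all genes the calls numbered 962, but 633 with edgeR, 428 with edgeR on unfiltered genes, 561 with the replicate block, 114 when tested against a 2-fold change and 636 without KO replicate 2. With the replicate block 2 of the 10 and 7 of the other genes were called. The labels do not say that a number is shared, and same-numbered libraries did not deviate together (correlation -0.07 and 0.01 over 12591 genes), so the numbers were not taken to pair them. Counts were lowest for Spp1 and Ibsp, at no more than 74 in any library, and Spp1 also varied between WT libraries (17 to 74 counts). How far depth or that spread limits them was not tested.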
